A study of Mus musculus with 11 samples.

Results

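The transcripts described here are Cr2, Fcer2a and Ms4a1, which encode the surface receptors CD21 with CD35, CD23 and CD20 of mature B cells. They were taken from the deposited expression table by gene symbol, and all 3 were found among its 417 rows. RNA had been sequenced from spleen dendritic cells of mice labelled as carrying 1 uromodulin allele with cysteine replaced by phenylalanine (C105F/+). One protocol label writes C106F. There were 5 C105F/+ libraries (replicates 2 to 6) and 6 libraries of wild type littermates (replicates 1 to 6). All mice were C57BL/6J aged 12 to 16 weeks, and the change had been placed in the germline by Cas9 injection of embryos. After collagenase digestion of the spleens, magnetic removal of other cells enriched the dendritic cells. The series is about kidney injury, but the labels of these samples name no injury, sex, batch or day, and whether each library is a separate animal is not stated. The p-values therefore measure the spread between libraries.

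The 417 genes were deposited because they differed between the genotypes. In the authors' deposited table the unadjusted p of every row is at most 0.0493 and its change, up or down, at least 2-fold, so the difference of each member was a condition of its being in the table. Its tests below describe that selection and are not independent evidence. Umod has no row, so no check of the genotype was made. The labelled cell type could be checked only in part, since 2 of 18 listed dendritic cell genes had rows (Itgae and Pacsin1) and the defining genes Itgax, Flt3 and Zbtb46 were not analysed here. Reads over the 417 rows numbered 195414 to 1198500 per library, which is part of each library and not its depth. Relative depth is given by the authors' size factors, which were recovered from the deposited means and ran from 0.827 to 1.98 in C105F/+ and from 0.615 to 1.19 in wild type. A scaled count is a read count divided by its library's size factor.

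CD21 binds fragments of complement C3 on antigen and, with other coreceptor proteins, lowers the threshold of the B cell receptor. In the mouse a single gene, Cr2, gives CD21 and the longer complement receptor CD35 by alternative splicing. CD23 is the low-affinity receptor for IgE, a C-type lectin, and its gene is induced by interleukin 4 through STAT6. CD20 is a membrane-spanning protein of B cells from the pre-B stage until they become plasma cells. In the mouse spleen, follicular B cells carry CD23 with moderate CD21, whereas marginal zone B cells carry much CD21 and little CD23, and both carry CD20. Follicular dendritic cells, which are stromal cells and not relatives of the cells studied here, also carry CD21 and CD23.

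All 3 receptor transcripts were higher on average in C105F/+ than in wild type, by 4.41-fold for Cr2, 3.40-fold for Fcer2a and 2.32-fold for Ms4a1. The means rested on C105F/+ 2, 5 and 6, which were high for all 3 genes. C105F/+ 3 and C105F/+ 4 lay near wild type for Ms4a1 and differed from each other in the other genes. By edgeR's quasi-likelihood test over the table, all 3 had an adjusted p under 0.05, as did 52.5% of the 322 tested rows in the same direction and 22% in the other. With TMM scaling computed on these rows all 3 were still higher but none passed (log2 fold changes 1.03, 0.66 and 0.17; median shift of all rows -0.95). In bulk RNA, more cells of a type and more RNA per cell cannot be told apart.

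Cr2 (Entrez 12902, GRCm38 chr1:195136811-195176716, minus strand, protein-coding) had scaled counts of 1153, 209.6, 151, 847 and 809 in C105F/+ 2 to 6, against 174, 137, 113, 157, 104 and 178 in wild type 1 to 6. In C105F/+ 4 the gene was thus within the wild type range, and in C105F/+ 3 it was just above it. The C105F/+ mean was 634 ± 435 scaled counts (SD, n = 5) and the wild type mean 143.9 ± 31.3 (SD, n = 6). The log2 fold change was 2.14 (SE 0.49, edgeR adjusted p = 0.0181, exact two-sided permutation p = 0.00866), with 4 of 5 C105F/+ libraries above every wild type library. Without C105F/+ 2 the edgeR adjusted p was 0.056 and the fold 3.50. The authors' deposited table gives an adjusted p of 0.00194. The row carries 1 transcript accession, so CD21 and CD35 messages could not be told apart.

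Fcer2a (Entrez 14128, GRCm38 chr8:3681737-3694175, minus strand, protein-coding) had scaled counts of 770.4, 85.4, 241, 563 and 438 in C105F/+ 2 to 6, against 120.4, 145, 119.7, 126, 115 and 116 in wild type 1 to 6. C105F/+ 3 was below every wild type library, and the other 4 C105F/+ libraries were above them all. The means were 420 ± 268 in C105F/+ (SD, n = 5) and 124 ± 11.3 in wild type (SD, n = 6). The log2 fold change was 1.76 (SE 0.46, edgeR adjusted p = 0.0226, exact two-sided permutation p = 0.026). Without C105F/+ 2, 5 or 6 the edgeR adjusted p was 0.0617, 0.0653 or 0.0573. In the authors' deposited table the adjusted p is 0.00671.

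The 250 bases before the starts of Cr2 and Fcer2a are shown because these genes were set apart from each other in C105F/+ 3 and 4. The sequences are from RefSeq on GRCm38.p6. Each is on the minus strand and is given 5′ to 3′. The first stretch is chr1:195176720-195176969, before the Cr2 start. The table holds 3 starts of Fcer2a, and the stretches before them are chr8:3694175-3694424 for the upstream start, chr8:3690862-3691111 for the first internal start and chr8:3690391-3690640 for the second. Capitals mark matches on either strand to CACCTG, an E-box bound by E proteins, and to the STAT6 motif, which is TTC and GAA with 4 bases of any kind between them.

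Cr2: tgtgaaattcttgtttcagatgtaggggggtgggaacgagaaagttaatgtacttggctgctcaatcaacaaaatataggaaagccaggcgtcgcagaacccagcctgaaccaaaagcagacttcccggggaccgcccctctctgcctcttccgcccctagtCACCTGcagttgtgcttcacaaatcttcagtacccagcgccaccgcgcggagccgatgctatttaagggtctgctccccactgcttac
Fcer2a, upstream start: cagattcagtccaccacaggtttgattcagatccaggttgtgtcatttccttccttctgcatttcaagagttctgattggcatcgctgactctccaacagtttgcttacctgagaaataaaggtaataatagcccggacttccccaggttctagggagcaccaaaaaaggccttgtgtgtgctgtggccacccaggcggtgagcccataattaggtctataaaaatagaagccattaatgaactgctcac
Fcer2a, first internal start: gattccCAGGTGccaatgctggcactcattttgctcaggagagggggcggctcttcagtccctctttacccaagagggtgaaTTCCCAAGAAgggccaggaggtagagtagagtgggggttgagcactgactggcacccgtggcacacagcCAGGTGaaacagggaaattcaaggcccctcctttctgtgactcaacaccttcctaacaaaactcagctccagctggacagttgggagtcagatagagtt
Fcer2a, second internal start: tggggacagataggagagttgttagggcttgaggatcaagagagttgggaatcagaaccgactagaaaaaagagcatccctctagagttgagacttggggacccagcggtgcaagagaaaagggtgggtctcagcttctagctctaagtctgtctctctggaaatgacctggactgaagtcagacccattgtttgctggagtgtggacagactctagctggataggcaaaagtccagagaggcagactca

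The Cr2 stretch held 1 match to CACCTG, beginning 88 bases before the start. The first internal Fcer2a stretch held 2 matches to CACCTG, beginning 244 and 99 bases before the start, and 1 to the STAT6 motif, beginning at 168, while the upstream and the second internal Fcer2a stretches held neither motif. Of 32851 mouse stretches of the same length, 17.2% held CACCTG and 5.85% held the STAT6 motif. The octamer ATGCAAAT (1.60% of all stretches) and the PU-box GAGGAA (23.2%) were also searched on both strands and had no match in the stretches shown. No motif overlapped another. The counts do not separate transcripts by start, so no value here belongs to any one of the 3 Fcer2a starts.

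Ms4a1 (Entrez 12482, GRCm38 chr19:11249675-11266241, minus strand, protein-coding) had scaled counts of 2369, 629.8, 571, 2042 and 1856 in C105F/+ 2 to 6, against 564, 662, 544, 841, 687 and 559 in wild type 1 to 6. The high C105F/+ libraries exceeded every wild type library, while C105F/+ 3 and 4 fell inside the wild type range. The means were 1493 ± 836 in C105F/+ (SD, n = 5) and 643 ± 113 in wild type (SD, n = 6), and the log2 fold change was 1.22 (SE 0.40, edgeR adjusted p = 0.0295). The exact two-sided permutation test on log2(scaled count + 1) did not pass for Ms4a1 (p = 0.0606). Without C105F/+ 2, 5 or 6 the edgeR adjusted p was 0.069, 0.071 or 0.0662, and the authors' deposited table gives 0.0382. An antisense gene, 4930526L06Rik, overlaps Ms4a1 on the plus strand. The libraries were directional, but no source used here says whether counting used strand.

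**Figure D1:**
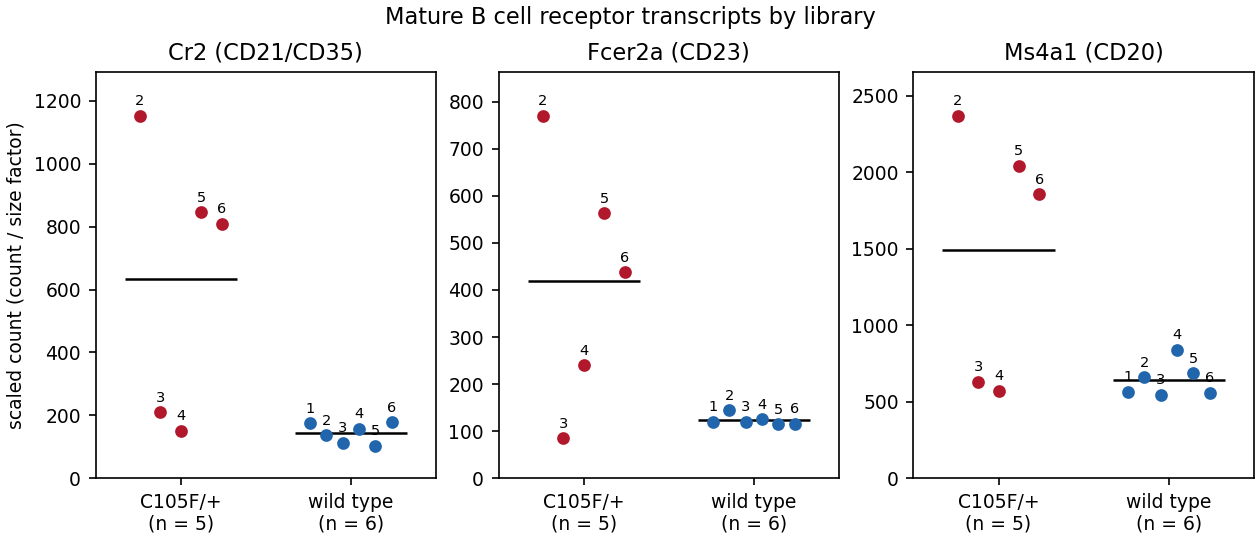
Scaled counts (read count divided by the library's size factor, linear axis from 0) of Cr2, Fcer2a and Ms4a1 in 5 C105F/+ and 6 wild type libraries, with each point numbered by replicate and a line at the group mean. C105F/+ 2, 5 and 6 lie far above wild type in all 3 panels, and C105F/+ 3 has the lowest Fcer2a value, 85.4.

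The groups overlapped for each of the 3 genes. Over all 417 rows, 10.1% had every C105F/+ library above every wild type library and 3.36% had every one below. The permutation test gave a p under 0.05 for 2 of the 3 members, against 45.6% of all rows in the higher and 22.1% in the lower direction. The authors' deposited table calls all 3 members at an adjusted p under 0.05, where 29.8% of the 295 rows with an adjusted p were called higher and 7.8% lower. Taken library by library, C105F/+ 2, 5 and 6 exceeded every wild type library for all 3 members and for 56.6%, 58.3% and 55.9% of all rows. C105F/+ 3 did so for Cr2 and for 20.1% of all rows, and C105F/+ 4 for Fcer2a and for 36.9%. These background shares come from a table selected on the same contrast, and nothing about the members is read from them.

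Leaving out single libraries showed on which of them the edgeR calls depended. The log2 fold change ran from 1.81 to 2.39 for Cr2, from 1.42 to 2.03 for Fcer2a and from 0.99 to 1.42 for Ms4a1 over the 11 fits that left out 1 library. It was highest without C105F/+ 3 or C105F/+ 4. The edgeR calls of Fcer2a and Ms4a1 were lost without any one of C105F/+ 2, 5 or 6, and that of Cr2 was lost without C105F/+ 2. The Fcer2a log2 fold change was nonetheless 1.75 without C105F/+ 6, against 1.76 with all libraries. By exact permutation, p stayed under 0.05 in all 11 removals for Cr2 (0.00476 to 0.0318) and Fcer2a (0.00476 to 0.0476). For Ms4a1 the permutation p ran from 0.019 to 0.127. Across the whole table the edgeR fits without C105F/+ 2, 5 and 6 called 8, 10 and 13 higher rows, against 169 with all libraries.

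**Figure D2:**
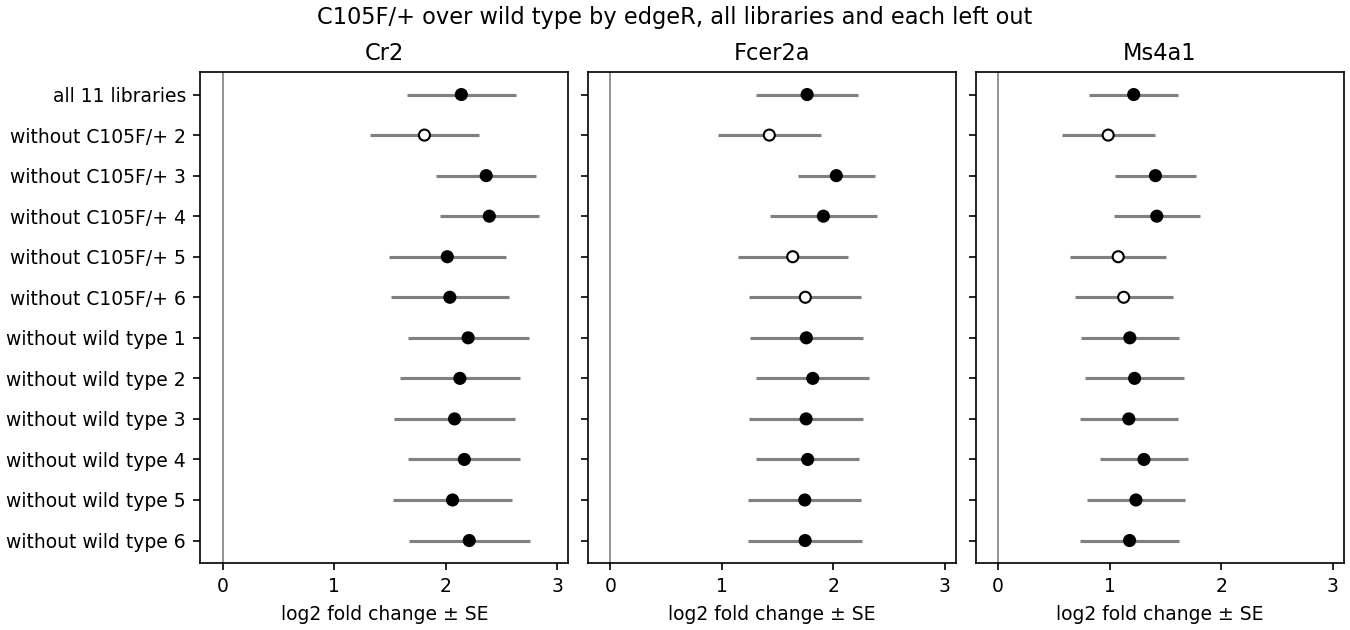
Log2 fold change of C105F/+ over wild type by edgeR (x axis, with SE bars) for Cr2, Fcer2a and Ms4a1, with all libraries and with each library left out (rows). Filled points have an adjusted p under 0.05 and open points do not. The Cr2 point is open without C105F/+ 2 (1.81), and the Fcer2a and Ms4a1 points are open without C105F/+ 2, 5 or 6.

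The spread within C105F/+ was much wider than within wild type. The SD was 68.7% of the mean for Cr2, 63.9% for Fcer2a and 56.0% for Ms4a1 in C105F/+, against 21.8%, 9.11% and 17.7% in wild type. In wild type, Fcer2a varied about as much as counting alone gives, with a variance 1.08 times that of Poisson counting at 74 to 151 reads per library. Cr2 and Ms4a1 had variances 6.82 and 18.5 times the Poisson value in wild type. In C105F/+ these ratios were 336 for Cr2, 205 for Fcer2a and 516 for Ms4a1.

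Levels of the genes can be compared with each other only per length, as FPKM. Ms4a1 was the most abundant with 14.9 ± 8.91 FPKM in C105F/+ (SD, n = 5) and 5.66 ± 1.38 FPKM in wild type (SD, n = 6). Fcer2a followed with 3.86 ± 2.61 FPKM in C105F/+ and 0.98 ± 0.10 FPKM in wild type, and Cr2 was lowest with 2.11 ± 1.52 FPKM in C105F/+ and 0.415 ± 0.098 FPKM in wild type. This order held inside every library, since the FPKM of Fcer2a was 0.124 to 0.388 times that of Ms4a1 in C105F/+ and 0.136 to 0.202 times in wild type. The FPKM of Cr2 was 0.226 to 0.887 times that of Fcer2a in C105F/+ and 0.33 to 0.565 times in wild type. Between libraries Cr2 and Fcer2a did overlap, with C105F/+ 2 at 3.98 FPKM of Cr2 and C105F/+ 3 at 0.685 FPKM of Fcer2a. So did Fcer2a and Ms4a1, with C105F/+ 2 at 7.36 FPKM of Fcer2a and C105F/+ 4 at 5.48 FPKM of Ms4a1.

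The balance of marginal zone and follicular receptors was then read from ratios within each library, which do not depend on how libraries are scaled. A high ratio of Cr2 to Fcer2a is the pattern of marginal zone B cells and a low ratio that of follicular B cells. These ratios are of RNA in an enriched dendritic cell fraction and are not counts of cells. The ratios were computed on log2(scaled count + 1), and 3 pairs were compared.

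The read count of Cr2 was 1.496, 2.46, 0.629, 1.504 and 1.85 times that of Fcer2a in C105F/+ 2 to 6, against 1.45, 0.947, 0.942, 1.25, 0.904 and 1.54 times in wild type 1 to 6. The highest and the lowest ratio of all 11 libraries were both in C105F/+, in replicates 3 and 4. The mean log2 ratio was 0.53 ± 0.73 in C105F/+ (SD, n = 5) and 0.19 ± 0.34 in wild type (SD, n = 6). The difference of 0.34 was within the spread of the libraries (exact two-sided permutation p = 0.327, adjusted p = 0.327 over 3 ratios). Without C105F/+ 4 it was 0.64 (exact permutation p = 0.0238, unadjusted), and without C105F/+ 3 it was 0.15 (exact permutation p = 0.61, unadjusted). The size of the difference thus depended on both of these libraries, which lay at opposite ends. With all libraries, a shift between marginal zone and follicular weighting was not detectable.

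Cr2 set against Ms4a1 gave count ratios of 0.487, 0.333, 0.265, 0.415 and 0.436 in C105F/+ 2 to 6, against 0.308, 0.207, 0.207, 0.187, 0.151 and 0.319 in wild type 1 to 6. Of the C105F/+ libraries 4 were above all wild type libraries, and C105F/+ 4 was within their range. The mean log2 ratio was -1.40 ± 0.35 in C105F/+ and -2.16 ± 0.42 in wild type (SD, n = 5 and 6), a 1.70-fold higher ratio (log2 difference 0.77, exact two-sided permutation p = 0.0173, adjusted p = 0.052 over 3 ratios). The difference kept an unadjusted p under 0.05 without any single library, from 0.00952 to 0.0333 by exact permutation, but it did not pass after adjustment over the 3 ratios.

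Fcer2a set against Ms4a1 gave count ratios of 0.325, 0.136, 0.422, 0.276 and 0.236 in C105F/+ 2 to 6, against 0.213, 0.219, 0.2199, 0.149, 0.167 and 0.207 in wild type 1 to 6. C105F/+ 3 was lowest of all, and the other 4 C105F/+ libraries were above every wild type library. The mean log2 ratio was -1.93 ± 0.61 in C105F/+ and -2.36 ± 0.24 in wild type (SD, n = 5 and 6), a difference of 0.42 that did not pass (exact two-sided permutation p = 0.145, adjusted p = 0.217). Without C105F/+ 3 the difference was 0.66, and all remaining C105F/+ libraries were above every wild type library. The exact permutation p of 0.00476, the smallest such a split allows, followed from that removal and is no evidence of a difference. Without C105F/+ 4 the difference was 0.25 (exact permutation p = 0.348).

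**Figure D3:**
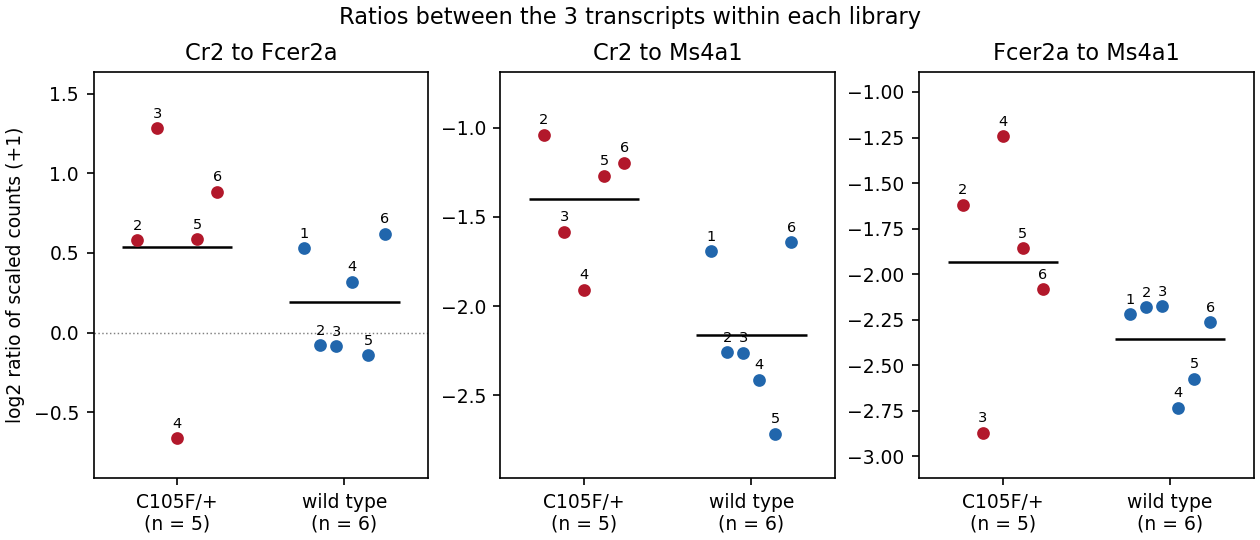
Log2 ratios of scaled counts (each count + 1) between Cr2 and Fcer2a, Cr2 and Ms4a1, and Fcer2a and Ms4a1 within each of 5 C105F/+ and 6 wild type libraries, numbered by replicate, with a line at the group mean. C105F/+ 3 and 4 sit at opposite ends for Cr2 to Fcer2a (1.29 and -0.67), and 4 of 5 C105F/+ libraries lie above wild type for Cr2 to Ms4a1.

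Other genes of mature B cells were counted from lists. Of 81 other genes listed for the B cell receptor, B cell transcription factors, follicular and marginal zone B cells, complement receptors, the CD23 pathway and the MS4A family, 8 had rows and all were tested. By edgeR 7 were higher with an adjusted p under 0.05 and none lower, where 52.5% of all 322 tested rows were called higher. All 8 had been deposited as higher, as had 253 of the 417 rows, while 164 rows had been deposited as lower. The lack of lower calls among the 8 repeats their deposited direction and is not separate evidence. The median log2 fold change was 1.55 over the 8 genes and 1.11 over all 322 rows, which mix rows deposited as higher and as lower. The authors' deposited table calls 2 of the 8 at that threshold, Mzb1 among them. The count of 7 became 0 when C105F/+ 2, 5 or 6 was left out, and 4 when wild type 2, 3, 5 or 6 was. It was also 0 with TMM scaling or DESeq2 size factors computed on the rows.

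Among B cell receptor and coreceptor genes, Cd79a had the only row of 20 listed. Cd79a encodes a signalling chain of the receptor. It had 180 to 3851 scaled counts in C105F/+ (median 3166) and 207 to 2041 in wild type (median 325), a 3.73-fold difference (edgeR adjusted p = 0.0384, exact permutation p = 0.0931). Of 8 transcription factors, 3 had rows and all 3 passed by edgeR. Ebf1, which sets up B cell identity, was 3.16-fold higher (adjusted p = 0.043), Pou2af1, a coactivator of octamer-binding factors, 4.57-fold (adjusted p = 0.0295) and Ikzf3, the zinc finger factor Aiolos, 2.86-fold (adjusted p = 0.0295). By exact permutation none of these 3 passed (p = 0.0563, 0.0541 and 0.0519).

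The follicular list had 4 rows of 12 and the marginal zone list 2 rows of 14, too few to weigh one against the other. Beside Fcer2a, the follicular rows described here are Klf2 and Cd55. Cd55, which limits complement on the cell surface, was 2.44-fold higher (edgeR adjusted p = 0.0373). Klf2, a factor that controls lymphocyte traffic, averaged 8119 ± 2369 scaled counts in C105F/+ and 4006 ± 2076 in wild type (SD, n = 5 and 6) and did not pass by edgeR (adjusted p = 0.0656), though the exact permutation p was 0.0281. Klf2 had 389 scaled counts in wild type 4 and 3472 to 6671 in the other wild type libraries. Beside Cr2, the marginal zone row was Mzb1, a chaperone that is also abundant in plasma cells, which was 2.99-fold higher (adjusted p = 0.0295). The marginal zone genes Cd1d1, Cd9, Dtx1, Notch2 and S1pr3 and the follicular genes Cxcr5, Ccr7 and Ighd were not analysed here. Complement genes had rows for Cr2 and Cd55 alone of 10 listed, the CD23 and IgE list for Fcer2a alone of 8, and the MS4A list for Ms4a1 alone of 17.

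C105F/+ 2, 5 and 6 were high for these genes as they were for the receptors. In wild type 4 and in C105F/+ 3 and 4, some of these genes departed from the receptors. In wild type 4, Cd79a, Ebf1 and Pou2af1 stood at 2041, 299.5 and 1523 scaled counts, against at most 530.3, 73.0 and 325 in the other wild type libraries. Cr2 and Fcer2a in that library were within 0.10 of the wild type median on the log2 scale, and Ms4a1 was 0.46 above it. In C105F/+ 4, Pou2af1 was 2.59 above the wild type median and Jchain, the joining chain of secreted antibody, 2.61 above it, while Fcer2a was 1.00 above, Cr2 0.04 above and Ebf1 0.08 below. C105F/+ 3 had the reverse arrangement, with Ebf1 1.65 above the wild type median, Cr2 0.51 above, and Fcer2a, Pou2af1 and Mzb1 below it by 0.49, 0.75 and 1.08.

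**Figure D4:**
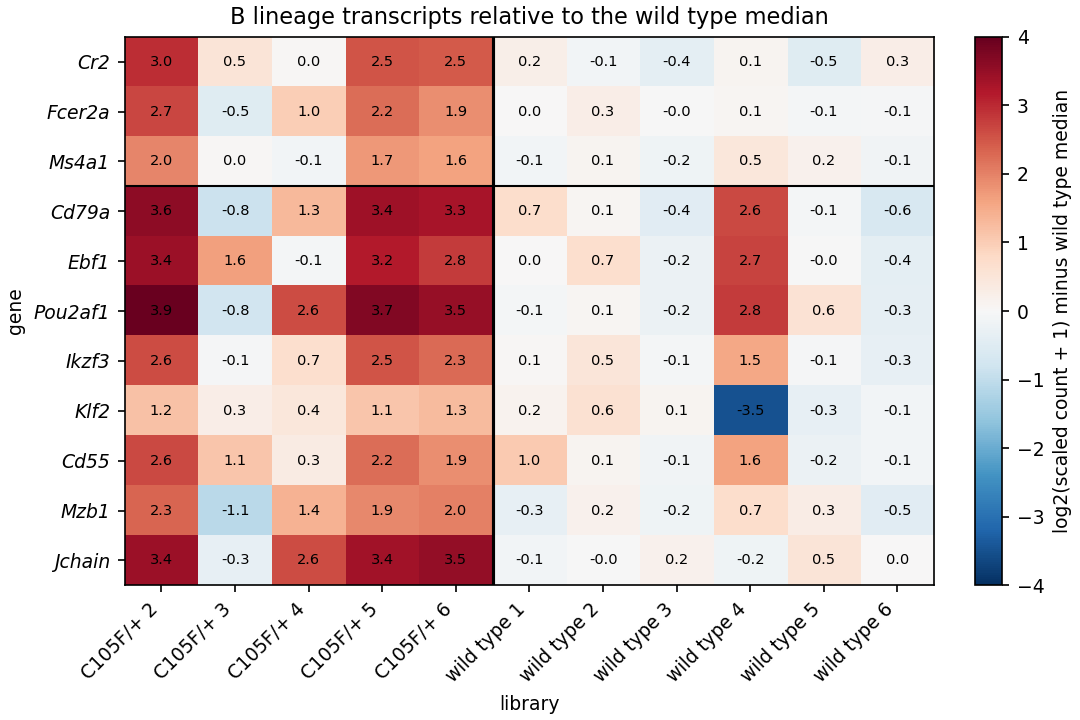
Log2(scaled count + 1) minus the wild type median (colour and cell text) for Cr2, Fcer2a and Ms4a1 (above the line), 7 other listed B cell genes and the plasma cell gene Jchain (rows) in 5 C105F/+ and 6 wild type libraries (columns, parted by a line). Wild type 4 is high for Cd79a, Ebf1 and Pou2af1 and low for Klf2, with Cr2 and Fcer2a near 0, and C105F/+ 3 and 4 are below C105F/+ 2, 5 and 6 in the 3 receptor rows.

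Most tested rows listed for the labelled dendritic cells and for other cells were also called higher in C105F/+, again in a table where 52.5% of tested rows were called higher. Both dendritic cell rows of 18 listed passed by edgeR, and the authors' deposited table calls 1 of them. Itgae, the integrin chain CD103, was 3.74-fold higher (edgeR adjusted p = 0.0226) and Pacsin1 2.45-fold (edgeR adjusted p = 0.0354). They summed to 1454 to 4885 scaled counts in C105F/+ and 168 to 1471 in wild type. The sum of 168 was in wild type 4, the library high for Cd79a, Ebf1 and Pou2af1. In the other wild type libraries the sum was 1079 to 1471. Of 14 plasma cell genes, 8 had rows and all 8 were higher by edgeR. Their summed scaled counts were 19139 in C105F/+ 3, 118810 in C105F/+ 4 and 195461 to 217195 in C105F/+ 2, 5 and 6, against 21297 to 32223 in wild type. The 3 T cell rows of 18 listed were all higher and summed to 200.1 to 1266 scaled counts in C105F/+ and 152 to 211 in wild type. The 4 neutrophil rows of 10 were all higher and summed to 704 to 5582 in C105F/+ and 578 to 1128 in wild type, and of 4 NK cell rows of 10, 3 were tested and 2 were higher, with sums of 38.9 to 905 in C105F/+ and 43.0 to 262 in wild type. Ncr1 and Prf1 were among the NK cell rows, and both were at 0 in C105F/+ 3 and in at least 1 wild type library. The authors' deposited table calls 6 of the plasma cell rows, 2 of the T cell rows, 1 of the neutrophil rows and 1 of the NK cell rows at an adjusted p under 0.05. The part of these cells in the receptor values was not tested. None of the 12 follicular dendritic cell genes or the 8 germinal centre genes had a row, and these were not analysed here.

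With the genotype means removed, the receptors varied together over the pooled libraries, among which C105F/+ had much the wider spread. No r was computed within wild type alone. After each group's mean was subtracted from log2(scaled count + 1), Pearson's r over the 11 libraries was 0.92 for Cr2 with Ms4a1, 0.85 for Fcer2a with Ms4a1 and 0.81 for Cr2 with Fcer2a. Without the 2 libraries farthest from the median of the first gene, r was 0.77, 0.86 and 0.85. The group means were not subtracted anew after this removal. These r can therefore include the difference between genotypes, and they do not test variation within a genotype. All genes of a library share its depth and its mixture of cells, and these values are descriptions.

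The genes most like each receptor by this measure were sought among 236 rows with a mean of at least 50 scaled counts. For Ms4a1 they were Ear1 (r = 0.97), Ets1 (0.96), Cd2 (0.93), Ceacam1 (0.93) and Xdh (0.93), with 0.86 to 0.92 without C105F/+ 3 and 4. Each r given here without 2 libraries kept the group means of all 11 libraries. Such an r can include the difference between genotypes. Ets1 is a transcription factor of lymphocytes, with 831 to 3725 scaled counts in C105F/+ and 682 to 1526 in wild type. Ear1 is a ribonuclease of eosinophils and was at 0 in at least 1 C105F/+ library. For Cr2 they were Ear1 (0.94), Ms4a1 (0.92), Ets1 (0.86), Ear6 (0.86) and Scd1 (0.85), with 0.66 to 0.84 without the same libraries. For Fcer2a a different set led, with Cmah (0.95), Lrg1 (0.93), Jakmip1 (0.92), Zbtb16 (0.91) and Jchain (0.91), at 0.62 to 0.85 without C105F/+ 2 and 3. Jchain had an r of 0.60 with Cr2 and 0.69 with Ms4a1. Of the other listed B cell genes, Ikzf3 had an r of 0.79 with Cr2, 0.84 with Fcer2a and 0.91 with Ms4a1. Klf2 had the lowest, at 0.19, 0.25 and 0.04.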

How the data were processed

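Per the submitters' processing notes, the build was mm10 and the tools were HISAT2 2.1.0, StringTie 2.1.3b, DESeq2, Trimmomatic 0.38, FastQC 0.11.7 and Bowtie2 2.3.4.1, with no settings or order given. The authors deposited 1 table of 417 rows with raw read counts, FPKM and normalized log2 columns for each library, per the file headers; how the log2 columns were transformed is not stated. The deposited signed fold is entered here as a score, and the deposited statistic is a score as well. The deposited mean is a signal that averages size-factor-scaled counts, and solving for those factors left a relative error of at most 4.7e-15. The deposited p-value and adjusted p-value are the authors' own, and 122 rows have no adjusted p.

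The quasi-likelihood test of edgeR 4.0.16 under R 4.3.3, two-sided, was run on the counts with these size factors. Its low-count filter kept 322 rows, over which p-values were adjusted by Benjamini-Hochberg. The SE is the log2 fold change over the root of the F statistic. Single genes and ratios were tested by exact two-sided permutation over all 462 assignments of libraries (smallest p 0.00216), with a pseudocount of 1. The fits were tested on simulated data. DESeq2 1.42.0, limma 3.58.1, other scalings, no filter, a replicate block and leaving out each library were the alternatives. No pair of libraries of a genotype agreed within sampling noise. Members, lists and tests were chosen with earlier results of these data known. Named genes are the members, listed genes with a row (1 is counted but not reported here), and for each member the 5 rows most like it. Promoters of Cr2 and Fcer2a were matched by symbol in the RefSeq table; Ms4a1 has no entry there.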

Additional observations from a re-analysis of the deposited data

Results flagged for a closer look

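Within-genotype outliers were sought with Dixon's criterion in 28 sets of values, each a gene or ratio in one genotype, and 5 were found; chance flags about 1 in 20. Fcer2a in wild type 2, at 145 scaled counts, lay apart from the other wild type libraries at 115 to 126. The wild type spread of Fcer2a, with wild type 2 included, was nonetheless about that of counting alone (1.08 times the Poisson variance). The other 4 were all in wild type 4. Cd79a had 2041 scaled counts there against 207 to 530.3 in wild type 1, 2, 3, 5 and 6, Ebf1 299.5 against 34.1 to 73.0, Pou2af1 1523 against 171 to 325, and Ikzf3 560.3 against 153 to 269. Cr2, Fcer2a and Ms4a1 were not outlying in that library, and their edgeR log2 fold changes without it were 2.17, 1.77 and 1.31.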

How the results depend on the processing

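Of 232 recomputed values, 179 kept their call or stayed within 1.5 times of the count. In 18 a call was lost, in 5 one was gained, and 30 counts moved further. No fold change, difference or log2 ratio changed sign, and counts could not. The 179 include results that passed in neither setting and the count of lower B cell genes, at 0 throughout, so they do not measure robustness. Scalings computed on the selected rows themselves moved the median log2 fold change of all rows by -0.95 (TMM) and -0.75 (DESeq2 size factors). With TMM, log2 fold changes were 1.03 for Cr2, 0.66 for Fcer2a and 0.17 for Ms4a1, with 0 of 3 members, 0 of 8 other B cell genes and 8 higher rows called. With DESeq2 size factors, Fcer2a had 0.85 and Ms4a1 0.32, and 1 member, 0 other B cell genes and 12 higher rows were called. Cr2 stayed past the threshold with DESeq2 size factors, at 1.19. Lower rows numbered 146 by DESeq2's test and 108 without a filter, against 71.

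With the replicate block, log2 fold changes were 1.85, 1.46 and 0.98 for Cr2, Fcer2a and Ms4a1, and 0 rows were called in either direction, 0 members and 0 other B cell genes among them (166 rows at an unadjusted p under 0.05 by edgeR). In paired differences Cr2 had 1.82 and Fcer2a 1.41 (exact sign-flip p = 0.125 each), and the Cr2 to Ms4a1 ratio 0.86 (p = 0.0625, the smallest 5 pairs allow). Whether the replicate numbers pair the libraries was not settled. Same-numbered deviations correlated at -0.086 to 0.12, and 1 of 5 was best with its own number. These deviations come from rows selected on the genotype difference, so they cannot exclude pairing. With FPKM the permutation difference of Ms4a1 was 1.14 (exact p = 0.0433).

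Leaving out 1 library, higher rows ran from 8 to 190, lower rows from 3 to 90, members called from 0 to 3, other B cell genes called higher from 0 to 8 (lower, 0 throughout), and edgeR log2 fold changes from 1.81 to 2.39 (Cr2), 1.42 to 2.03 (Fcer2a) and 0.99 to 1.42 (Ms4a1). Permutation differences ran from 1.44 to 2.17, 1.11 to 1.90 and 0.77 to 1.28, and the log2 ratios from 0.15 to 0.64 (Cr2 to Fcer2a), 0.66 to 0.89 (Cr2 to Ms4a1) and 0.25 to 0.66 (Fcer2a to Ms4a1). The causes were not tested. Total depth is unknown. The smallest member count, 74 reads of Fcer2a in wild type 1, limits the precision of that value. In C105F/+ the spread of Fcer2a was far wider than counting gives, at 205 times the Poisson variance.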
